A study of Mus musculus with 141 samples.

Results

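The kidneys compared here were those with the most and the fewest RNA-seq counts of *Cox7c*, a nuclear gene for a small subunit of cytochrome c oxidase. The samples came from 47 Collaborative Cross strains, inbred mosaics of 8 founder strains, with 1 male mouse per strain and whole kidney, liver and lung from each mouse (141 libraries). Each of the 47 kidneys was given a score, log2(CPM + 1) of *Cox7c*, where CPM is the count scaled to library size, here on the library total without the ribosomal RNA gene *Rn45s*. The 12 kidneys with the highest score formed the high group and the 12 with the lowest score the low group, so 24 of 47 kidneys entered the comparison. The mice were 8 to 12 weeks old, ate a standard diet, and had all been placed in chambers with clean air for 6 hours a day. No treatment separated the groups. They differ in strain, and since a strain is 1 mouse, each spread below is a spread between strains. In this comparison genotype cannot be told apart from the individual mouse, or from sequencing batch, which the labels do not name. *Cox7c* values in kidney set the groups and are given as a description with no test.

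The respiratory chain sits in the inner mitochondrial membrane. Complexes I and II pass electrons to complex III, cytochrome c carries them to complex IV (cytochrome c oxidase), which reduces oxygen to water, and complex V (ATP synthase) uses the proton gradient that complexes I, III and IV build. A core of the subunits is encoded in mitochondrial DNA and the rest, *Cox7c* among them, in the nucleus. Kidney cortex is rich in mitochondria because proximal tubule cells reabsorb solutes by active transport. Transcripts of small nuclear-encoded subunits have often been copied back into the genome as processed pseudogenes, and a short read from a shared stretch cannot be placed.

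*Cox7c* lies on the reverse strand of chromosome 13 at chr13:86184421-86186509 (NCBIM37/mm9), in 3 exons. Its coding sequence and the closest copies of it in the reference genome are shown because a 50-base read from a shared stretch has more than 1 place to align. Sequences are from the C57BL/6J reference, 5′ to 3′ on the coding strand. Capitals mark bases that differ from *Cox7c*.

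*Cox7c*, coding sequence of 192 bases: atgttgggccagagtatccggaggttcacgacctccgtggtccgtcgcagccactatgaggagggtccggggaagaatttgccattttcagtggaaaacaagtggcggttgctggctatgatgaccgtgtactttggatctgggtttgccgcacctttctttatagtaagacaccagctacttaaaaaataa
Copy at chr11:75413265-75413456, reverse strand: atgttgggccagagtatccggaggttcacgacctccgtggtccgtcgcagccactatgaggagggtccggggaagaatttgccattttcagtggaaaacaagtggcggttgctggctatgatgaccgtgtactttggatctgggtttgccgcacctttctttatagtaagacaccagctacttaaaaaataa
Copy at chr17:26038807-26038998, forward strand: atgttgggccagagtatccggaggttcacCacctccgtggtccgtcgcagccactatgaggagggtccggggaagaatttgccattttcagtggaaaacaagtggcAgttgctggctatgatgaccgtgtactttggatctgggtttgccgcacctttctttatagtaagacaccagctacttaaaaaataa
Copy at chr14:39193733-39193924, forward strand: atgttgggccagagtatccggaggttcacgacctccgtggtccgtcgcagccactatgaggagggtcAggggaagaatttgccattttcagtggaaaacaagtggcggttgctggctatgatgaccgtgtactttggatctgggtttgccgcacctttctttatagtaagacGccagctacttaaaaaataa
Copy at chr10:95871481-95871672, reverse strand: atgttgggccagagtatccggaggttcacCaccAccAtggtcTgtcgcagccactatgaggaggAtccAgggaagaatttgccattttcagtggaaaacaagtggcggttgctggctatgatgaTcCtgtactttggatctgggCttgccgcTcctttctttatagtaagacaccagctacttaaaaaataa

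The copy on chromosome 11 carried 0 differences over the 192 coding bases, and it matched the transcript at 99.8% over 403 bases. It lies within *Pitpna*, where the annotation also places the pseudogene *Gm12338*. The copies on chromosomes 17 and 14 differed at 2 coding positions each, G30C and G107A on chromosome 17 and C68A and A173G on chromosome 14, counted from 1 at the A of the start codon with the *Cox7c* base first. The annotation places the chromosome 17 copy in *Rab40c* (with the pseudogene *Gm10012*) and the chromosome 14 copy in *Nrg3* (with *Gm3386*). The copy on chromosome 10 differed at 10 positions and overlapped no annotated gene.

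Each 50-base window of the 540-base transcript was searched for exact matches elsewhere in the reference. Of 491 windows, 140 (28.5%) had no other match. The share depends on the transcript: in the other 3 annotated transcripts, of 315, 433 and 709 bases, it was 20.7%, 51.8% and 72.1%. None of the 143 windows inside the coding sequence was among them (0 of 143), nor were any of the 98 windows that crossed a boundary between coding and untranslated sequence. The 5′ untranslated region held 138 of its 180 windows without another match and the 3′ untranslated region 2 of its 70. Over the last 449 bases, the transcript length in the deposited tables, 49 of 400 windows (12.25%) were unique. Reads were mapped by the authors to pseudo-genomes and pseudo-transcriptomes of each strain, which were not used here, and counted only when they aligned uniquely. A *Cox7c* count is therefore a count of reads that aligned uniquely in that mapping. Whether the copies in the genome competed for reads in it was not tested. The window shares of the reference do not say which reads were counted. How many reads can be distinguished in each strain was not tested, and this and transcript abundance cannot be told apart in the deposited values.

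**Figure D1:**
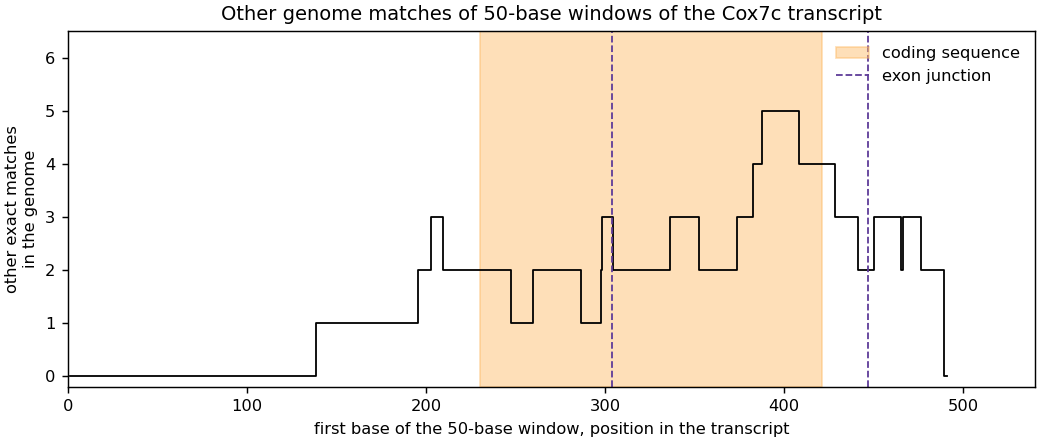
Number of other exact matches in the genome (y axis) for each 50-base window of the *Cox7c* transcript, by the position of its first base (x axis); the band is the coding sequence and dashed lines are exon junctions. Windows without another match lie almost all in the 5′ untranslated region (138 of 140), and windows inside the coding sequence have up to 3 other matches.

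In the high group *Cox7c* had 124, 413 and 915 counts (lowest, median and highest), or 29.5, 71.5 and 149 CPM. In the low group it had 0, 2 and 9 counts, or 0, 0.365 and 0.821 CPM. The mean was 76.0 ± 33.5 CPM (SD, n = 12) in the high and 0.37 ± 0.28 CPM (SD, n = 12) in the low group. Of the 12 low kidneys 2 (CC015 and CC033) had no count, and 10 had 3 counts or fewer, the upper limit that a count of 0 allows, so their order is not resolved at this depth. The highest kidneys were those of CC039 (149 CPM), CC061 (103 CPM) and CC031 (96.3 CPM). The cut at the top fell in a continuous range: the last high kidney, CC053, had 408 counts and 29.5 CPM, and the next, CC049, had 118 counts and 26.2 CPM. At the bottom the last kidney left out, CC035, had 3 counts and 0.944 CPM, and the first low kidney, CC038, had 9 counts in a deeper library and 0.821 CPM. The 23 kidneys between the cuts had a median of 8.59 CPM.

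**Figure D2:**
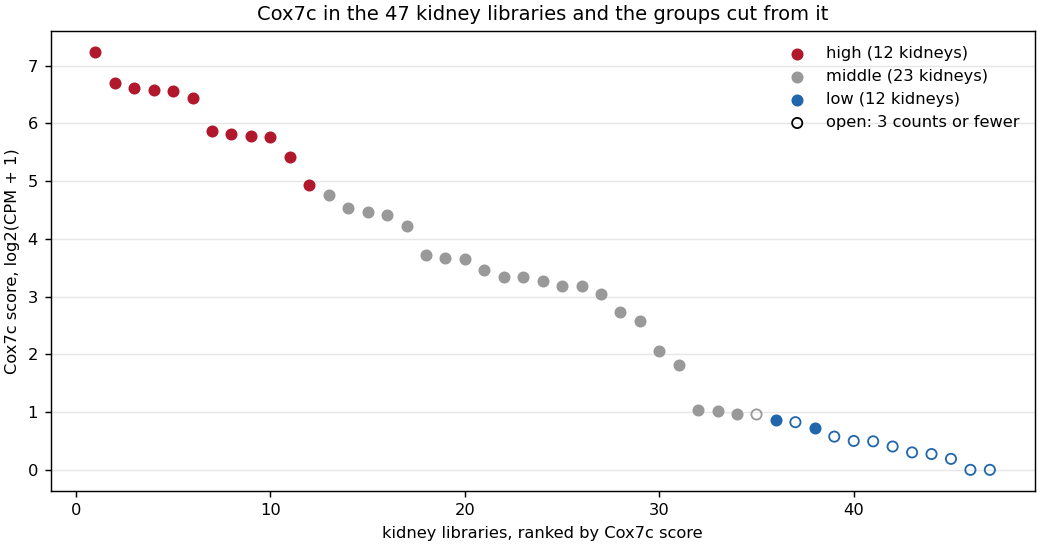
*Cox7c* score, log2(CPM + 1), of the 47 kidney libraries in order of rank, with the high (12), middle (23) and low (12) groups in colour and open points for libraries with 3 counts or fewer. The scores fall without a step at either cut, from 4.93 to 4.77 at the upper one and from 0.96 to 0.86 at the lower one.

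*Cox7c* in the liver and lung of the same 24 mice was not used to form the groups. In liver the high group had 6.60, 50.1 and 131 CPM (lowest, median and highest) and the low group 0, 0.222 and 0.863 CPM. In lung the high group had 4.35, 16.4 and 34.95 CPM and the low group 0, 0.24 and 0.992 CPM. All 12 high mice lay above all 12 low mice in both tissues. The mean score was 5.31 ± 1.27 (SD, n = 12) against 0.32 ± 0.25 (SD, n = 12) in liver, a difference of 4.99, and 3.98 ± 0.84 against 0.33 ± 0.33 in lung, a difference of 3.65. Both differences had p = 1e-05 in a two-sided permutation test with 100000 resamples, the smallest these can give, and the pair of tests left the adjusted values the same. The limma-voom fits gave adjusted p values (Benjamini-Hochberg) of 0.0175 in liver and 7.2e-05 in lung. No high liver or lung had 3 counts or fewer, against 9 low livers and 11 low lungs. The median *Rn45s* share was 37.5% in high and 35.8% in low livers, and 17.9% in high and 38.0% in low lungs. Its part in the lung difference was not tested. *Cox7c* counts were thus higher in the same strains in all 3 organs. Reads of the 3 organs of a strain were mapped in the same way, and read uniqueness and abundance cannot be told apart in liver and lung either.

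**Figure D3:**
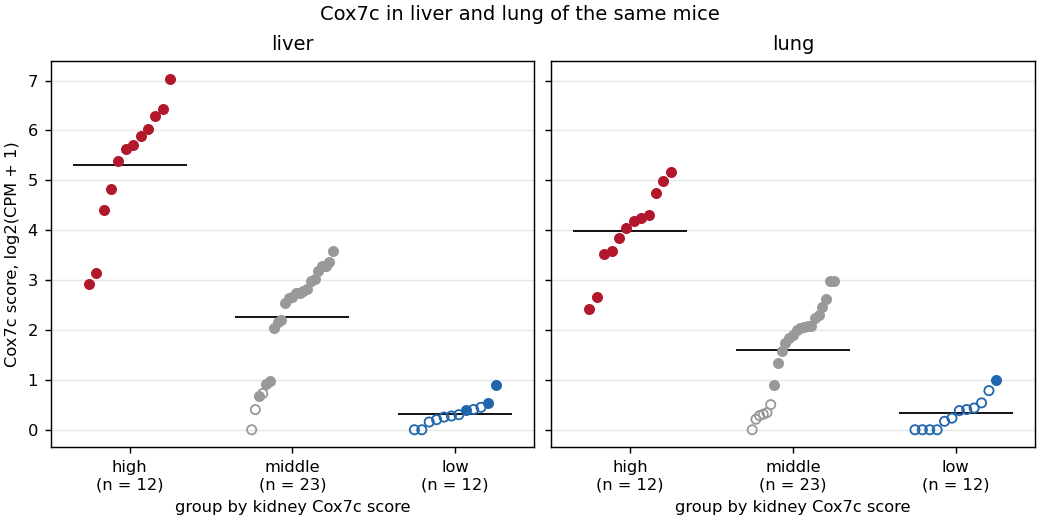
*Cox7c* score, log2(CPM + 1), in liver and lung of the same mice (points, with a line at each mean), grouped by the kidney score of the mouse, with open points for 3 counts or fewer. All 12 high mice sit above all 12 low mice in both tissues, with mean scores of 5.31 against 0.32 in liver and 3.98 against 0.33 in lung.

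The kidney libraries held from 2.25e+06 to 1.38e+07 counts in the high and from 2.04e+06 to 1.42e+07 counts in the low group, *Rn45s* excluded. Neither depth, *Rn45s* share (medians 24.2% and 38.8%), genes detected, the TMM scaling factor nor the first 2 principal components differed between groups beyond the spread between libraries, with a lowest adjusted p of 0.809 over the 6 permutation tests. One low kidney, CC020, stood apart, with a first component of 71.7 where the other 23 ran from -19.3 to 19.3. It also had the highest summed level of immune and of tubule injury markers. In all 24 kidneys the proximal tubule genes *Pck1* (gluconeogenesis) and *Cubn* (the cubilin receptor) were high, from 2251 to 8114 and from 167 to 701 TPM.

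With *Cox7c* left out, 1 of 11877 genes tested (0.00842%) differed between high and low kidneys at an adjusted p of 0.1 or less by limma-voom. edgeR's quasi-likelihood test called 0 genes and DESeq2 called 7. At an unadjusted p under 0.05, 315 genes (2.65%) were higher and 321 (2.7%) lower in the high group. The gene called was *Car5a* (chr8:124440026-124468804), mitochondrial carbonic anhydrase 5A, which supplies bicarbonate to gluconeogenesis and the urea cycle. *Car5a* is no subunit of the respiratory chain, and as it lies under the 5 CPM that the naming rule asks for, it was chosen after its values were seen. Its level was 1.67, 2.39 and 4.67 CPM in the high kidneys (lowest, median and highest) and 0.396, 0.987 and 3.14 CPM in the low ones. *Car5a* rose by 1.39 on the log2 scale (SE 0.24, adjusted p = 0.0309). The groups overlapped, since CC024 (1.71 CPM) and CC015 (3.14 CPM) of the low group lay above the lowest high kidney. The call was lost in edgeR's test (adjusted p = 0.225), with all 47 kidneys in the fit (0.154), and without either of the low kidneys CC038 and CC068 (up to 0.194). In liver, where the gene is far higher, the difference was -0.07 (SE 0.20, adjusted p = 0.991), with 27.2 to 74.5 CPM in high and 23.6 to 77.2 CPM in low mice. In whole tissue, fewer cells of a type and less RNA per cell cannot be told apart.

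None of the other respiratory-chain subunits passed the test in kidney. Of 86 nuclear subunits with deposited values, 80 were tested and 0 were called, with a lowest adjusted p of 0.801, and edgeR and DESeq2 also called 0 of them. At an unadjusted p under 0.05, 4 were higher and 1 lower in the high group, which is 6.25% of the subunits beside 5.35% of all genes. The groups overlapped for all 80, as they did for *Car5a*, the 1 gene called. The share of all tested genes that overlap is not given here, so this count is a description only. Most point estimates lay slightly above 0: 68 of 80 subunits were above and 12 below it, with a median log2 difference of 0.10, where the median of all genes was 0.0035. Of all genes 6043 of 11877 lay above 0. The subunits share their libraries and are not independent. Their summed CPM went the other way, with medians of 21481 in high and 22022 in low kidneys. Summed TPM of all 86, on a total that includes *Rn45s*, had medians of 54877 and 39951. The 95% interval lay within a log2 difference of 1 in either direction for 74 subunits (92.5%, against 85.1% of all genes) and within 0.5 for 61 (76.25%, against 54.9%). Between the same groups the mean *Cox7c* score differed by 5.71, a value set by the choice of groups and no measure to hold the subunits against. Leaving out each kidney in turn gave from 3 to 9 subunits at p under 0.05 (3 without CC030, 8 without CC021, CC024 or CC038, 9 without CC002) and a median of 0.07 to 0.13. The 13 subunits encoded in mitochondrial DNA were not found by symbol among the deposited values and could not be analysed.

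**Figure D4:**
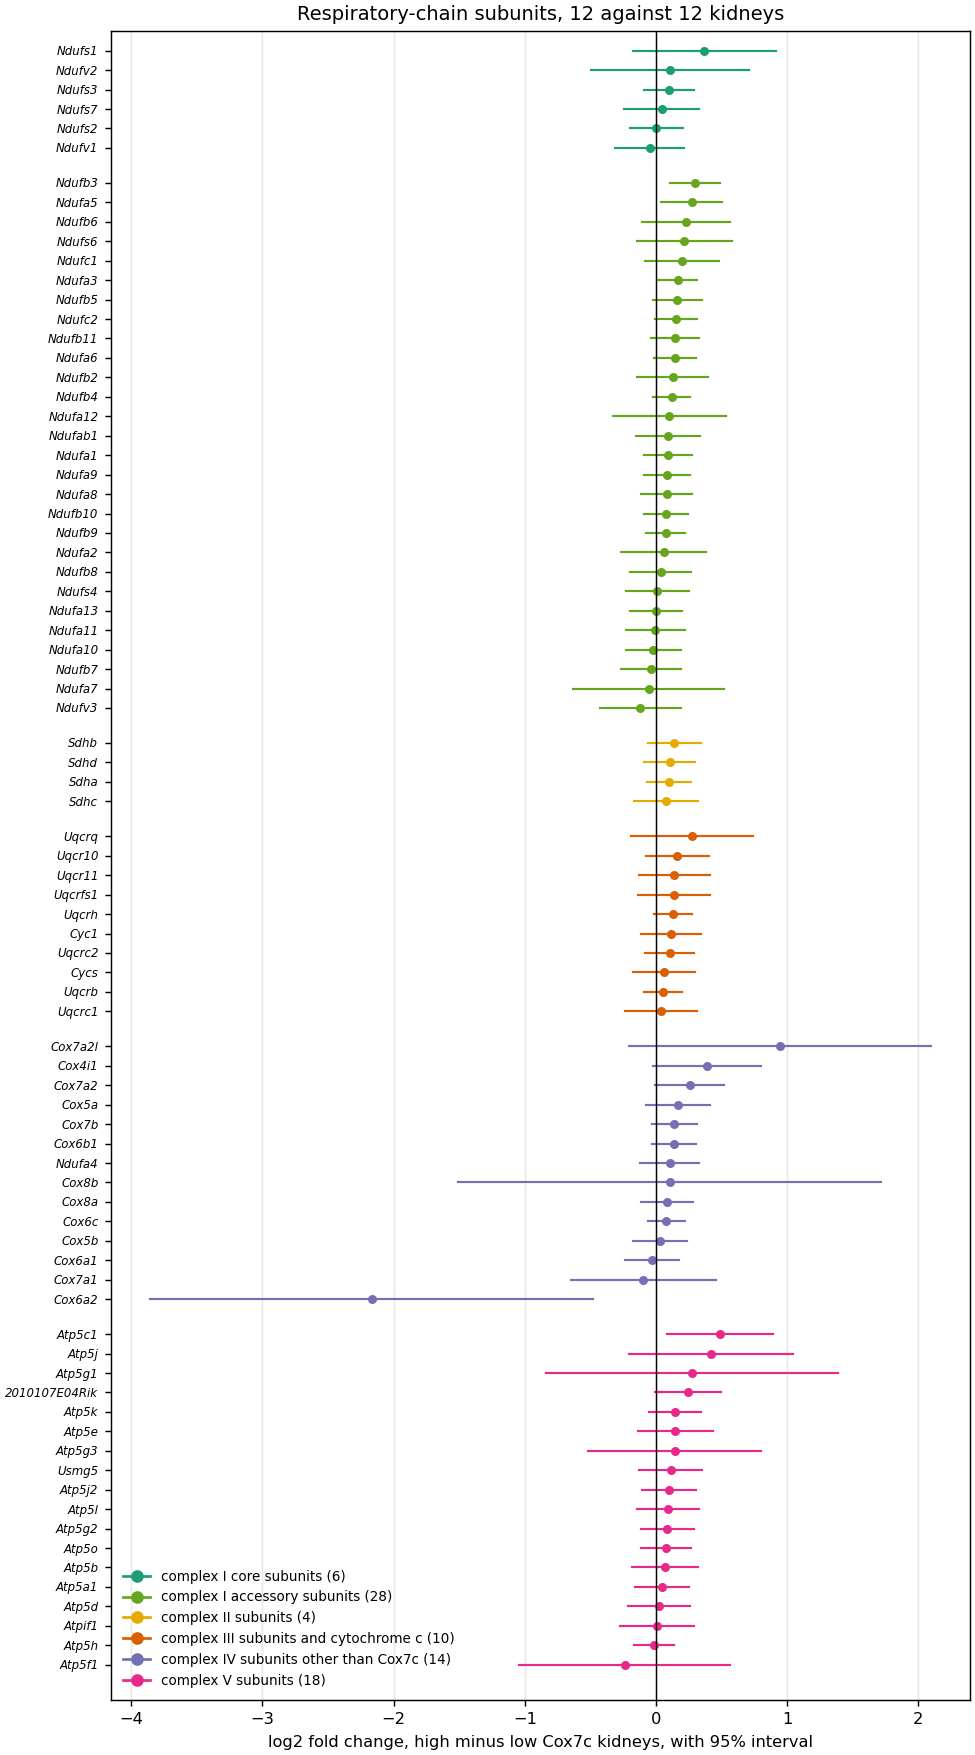
Log2 difference, high minus low *Cox7c* kidneys, with its 95% interval for the 80 tested respiratory-chain subunits other than *Cox7c*, coloured by complex. Points gather just above 0 (68 above, 12 below), and the widest intervals belong to subunits counted at low levels such as *Cox6a2*, *Cox8b* and *Cox7a2l*.

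Complex IV holds *Cox7c* itself, and its 14 other tested subunits were not called (lowest adjusted p 0.912). Of these 11 lay above 0 and 3 below, with a median log2 difference of 0.10. *Cox4i1*, the isoform of subunit IV that most tissues use, had 4.33, 8.89 and 13.8 CPM in high and 2.42, 5.79 and 10.7 CPM in low kidneys, a difference of 0.39 (SE 0.20). *Cox7a2*, the common isoform of subunit VIIa, had 198, 265 and 412 CPM against 143, 248 and 282 CPM, a difference of 0.26 (SE 0.13). The groups overlap in both genes. *Cox5a* and *Cox5b*, which both lie on the matrix side of the enzyme, differed by 0.17 (SE 0.12) and 0.03 (SE 0.10). *Cox6a1* and *Cox6b1*, the widely expressed isoforms of subunits VIa and VIb, differed by -0.03 (SE 0.10) and 0.14 (SE 0.08). *Cox6c*, *Cox7b* and *Cox8a*, small membrane-spanning subunits like *Cox7c*, differed by 0.08 (SE 0.07), 0.14 (SE 0.08) and 0.08 (SE 0.10). *Ndufa4*, first assigned to complex I and later to complex IV, differed by 0.10 (SE 0.11), with a median of 422 CPM in high and 426 CPM in low kidneys. None of these 10 intervals reached a log2 difference of 1.

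The isoforms of heart and skeletal muscle were low and variable. *Cox6a2* had 0, 0.606 and 2.45 CPM in high and 0, 2.05 and 12.2 CPM in low kidneys. Its difference of -2.17 (SE 0.82, unadjusted p = 0.0139, adjusted p = 0.912) is the 1 subunit with a lower value at p under 0.05. *Cox8b* had 0.38, 4.38 and 7.06 CPM in high and 0.354, 1.55 and 70.5 CPM in low kidneys, a difference of 0.10 (SE 0.78). *Cox7a1* had medians of 11.2 and 10.9 CPM and a difference of -0.10 (SE 0.27). *Cox7a2l*, a supercomplex assembly factor, was near 1 CPM in both groups and differed by 0.95 (SE 0.56). All 3 muscle isoforms also belong to the list of brown fat and muscle markers, which summed to 226 to 1118 TPM in high and 162 to 4657 TPM in low kidneys, highest in CC038 and then CC059 (3061 TPM). The defining genes of skeletal muscle, *Acta1* and *Ckm*, reached at most 0.15 and 1.28 TPM. *Ucp1*, the uncoupling protein of brown fat, had 2.09, 35.1 and 76.6 CPM in high and 0.629, 11.4 and 704 CPM in low kidneys (0.75, SE 0.95), and *Cidea*, a lipid droplet protein, differed by 0.55 (SE 0.83). The part of adjoining tissue in these values was not tested.

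Per length, *Cox7c* was below the other abundant complex IV subunits in both groups. TPM, which divides by transcript length and whose total includes *Rn45s*, was 158 to 672 for *Cox7c* in high kidneys (median 336) and 0 to 4.18 in low kidneys (median 1.56). The 9 other subunits with a median over 100 TPM had medians of 710 to 2021 TPM in high and 494 to 1755 TPM in low kidneys. The *Cox7c* median was 25.1% of the middle one of these 9 in the high group and 0.147% in the low group. Only uniquely aligned reads enter TPM, and 12.25% of the windows over the last 449 bases of *Cox7c* were unique in the reference. The part of this in the lower TPM was not tested, so these values do not rank the subunits by abundance.

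**Figure D5:**
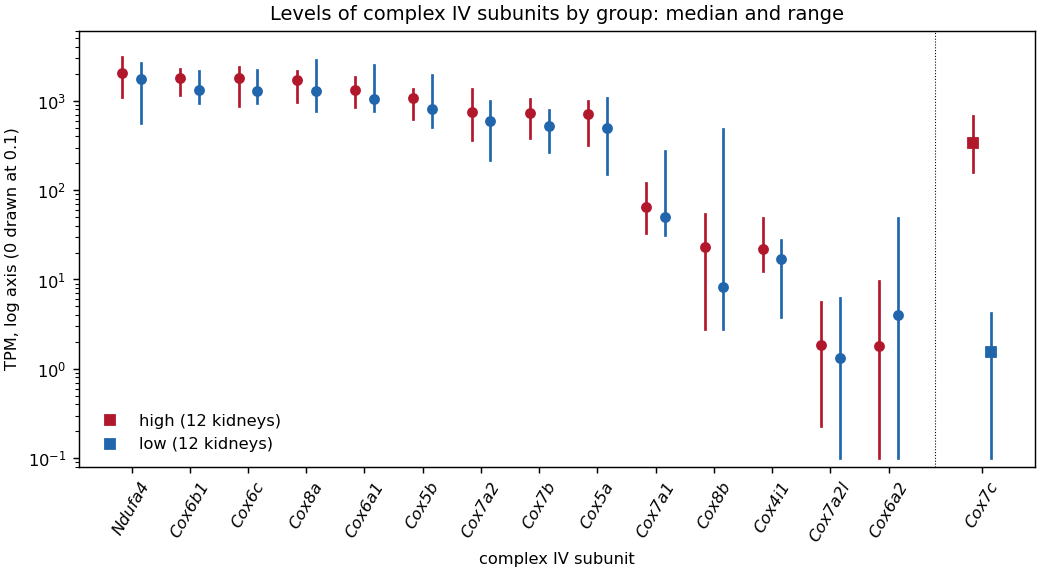
TPM on a log axis (median and range, 12 kidneys per group) for the 14 tested complex IV subunits other than *Cox7c*, and for *Cox7c* at the right; values of 0 are drawn at 0.1. High and low kidneys overlap for every other subunit. *Cox7c* runs from 158 to 672 TPM in high and from 0 to 4.18 TPM in low kidneys, a separation set by the choice of groups.

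Complex I held the subunit with the smallest p, *Ndufb3*, without a call. The 6 core subunits tested had a median difference of 0.07, with 5 above 0. *Ndufs1*, the iron-sulfur subunit that receives electrons from the flavin site, differed by 0.37 (SE 0.27), but at 1.30, 3.50 and 9.18 CPM in high and 1.07, 2.41 and 4.31 CPM in low kidneys it was thinly counted. *Ndufs3* differed by 0.10 (SE 0.09) and *Ndufv1*, which binds NADH, by -0.05 (SE 0.13). Of the 28 accessory subunits 22 lay above 0 (median 0.09), and 3 were higher at an unadjusted p under 0.05. The first was *Ndufb3*, a membrane-arm subunit, with 65.3, 89.1 and 99.3 CPM in high and 50.9, 69.3 and 93.6 CPM in low kidneys. It differed by 0.30 (SE 0.09, unadjusted p = 0.00387, adjusted p = 0.801). *Ndufa5* differed by 0.27 (SE 0.11, p = 0.0252) and *Ndufa3* by 0.16 (SE 0.07, p = 0.0331), both with an adjusted p of 0.912 from limma-voom. For all 3 the groups overlapped.

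The 4 subunits of complex II, succinate dehydrogenase, all lay above 0 and none reached p under 0.05. *Sdhb* differed by 0.14 (SE 0.10), *Sdha* by 0.10 (SE 0.08) and *Sdhd* by 0.10 (SE 0.09). The 10 genes of complex III and cytochrome c all lay above 0 as well, with a median of 0.12 and again none at p under 0.05. *Uqcrh*, the hinge protein, had 233, 265 and 306 CPM in high and 191, 245 and 312 CPM in low kidneys, a difference of 0.13 (SE 0.07). *Uqcr10* differed by 0.16 (SE 0.12) and *Uqcrq* by 0.28 (SE 0.23). In complex V 16 of 18 subunits lay above 0 (median 0.10). *Atp5c1*, the gamma subunit that turns inside the catalytic head, had 7.40, 12.2 and 35.3 CPM in high and 6.99, 8.35 and 11.6 CPM in low kidneys, a difference of 0.49 (SE 0.20, unadjusted p = 0.0198, adjusted p = 0.912). *2010107E04Rik*, a small proteolipid of the enzyme, differed by 0.24 (SE 0.12) and *Atp5k* by 0.15 (SE 0.10).

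Read uniqueness was computed for the same 80 subunits. The median share of unique 50-base windows was 99.2%, and 8 subunits were under 50%. *Atp5g2*, a gene for the membrane ring of ATP synthase, had 0% unique windows, and *Atp5l* and *Usmg5*, small subunits of the same enzyme, 10.6% and 20.2%. Yet *Atp5g2* was among the 64 subunits with a median of 100 TPM or more in high kidneys. The share of unique windows thus does not say how many reads of a gene were counted. The SD of log2(CPM + 1) over the 24 kidneys had a median of 0.28 over the subunits, was 0.24 for *Atp5g2*, and was 2.94 for *Cox7c*, where it was set by the choice of groups. Across the 80 genes, which are not independent, the share of unique windows had a Spearman rho of 0.075 with that SD and of -0.049 with the size of the group difference. Windows were taken from the reference, and uniqueness in the strains was not tested.

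Genes that build or feed the chain were also not called. Among 21 complex IV assembly factors the median difference was 0.06, with 17 above 0. *Cmc1*, which stabilises the newly made COX1 subunit, differed by 0.26 (SE 0.10, unadjusted p = 0.0193), *Coa6*, of the copper pathway, by 0.31 (SE 0.18), and *Coa4* by -0.29 (SE 0.11, p = 0.0175), each with an adjusted p of at least 0.912 by limma-voom. Of 19 assembly factors of the other complexes 13 lay above 0. *Ndufaf4* differed by 0.24 (SE 0.11, p = 0.048), *Ndufaf6* by 0.26 (SE 0.13) and *Sdhaf1*, of succinate dehydrogenase, by -0.24 (SE 0.12). The 18 genes of the tricarboxylic acid cycle had a median of 0.02, with 0 at p under 0.05. Of these *Dld* differed by 0.18 (SE 0.10), *Sucla2* by 0.09 (SE 0.08) and *Ogdh* by 0.25 (SE 0.23). The 13 biogenesis regulators had a median of -0.01, with *Tfam*, which packages and transcribes mitochondrial DNA, at 0.23 (SE 0.10, p = 0.0369), *Prkaa1* at 0.09 (SE 0.07) and *Polrmt* at -0.17 (SE 0.14).

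The 11 tested genes of the mitochondrial stress response had a median of -0.03, and 2 of them were lower in high kidneys at p under 0.05. *Asns*, asparagine synthetase, had 2.09, 6.20 and 17.9 CPM in high and 7.20, 12.0 and 28.8 CPM in low kidneys, a difference of -0.67 (SE 0.27, unadjusted p = 0.0227). *Phgdh*, the first enzyme of serine synthesis, differed by -0.54 (SE 0.23, p = 0.0252), and *Mthfd2*, of mitochondrial folate metabolism, by -0.37 (SE 0.24). The adjusted p of each was at least 0.912, and these are no calls.

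In liver the subunits other than *Cox7c* leaned further to one side, again without a call. Of 10081 genes tested 0 (0%) were called by limma-voom and 0 by edgeR, with 493 (4.89%) at an unadjusted p under 0.05. Of 75 subunits tested 73 lay above 0, the median log2 difference was 0.18 (all genes -0.0072), and 23 (30.7%) were higher and 0 lower at p under 0.05. The lowest adjusted p was 0.937. All 28 accessory subunits of complex I and all 10 genes of complex III and cytochrome c lay above 0, and 9 and 5 of them had p under 0.05. In complex IV 11 of 12 lay above 0 and 6 had p under 0.05. *Cox7b* had 146, 195 and 251 CPM in high and 140, 161 and 193 CPM in low livers, a difference of 0.24 (SE 0.08, adjusted p = 0.937). *Cox5a* had 70.2, 104 and 131 CPM against 76.7, 84.5 and 98.6 CPM, a difference of 0.23 (SE 0.08). The high livers reach further up, and the groups overlap. The remaining 4 were *Cox5b* (0.28, SE 0.11), *Cox7a2* (0.24, SE 0.11), *Cox6b1* (0.19, SE 0.08) and *Cox7a2l* (1.01, SE 0.44). The subunits share their 24 libraries and are not independent of each other. Leaving out each liver in turn gave from 10 to 36 subunits at p under 0.05 and a median of 0.14 to 0.22, with at least 70 of 75 above 0. The number fell to 10 without CC021 or CC039, 11 without CC002, 12 without CC010 or CC068, 13 without CC055, 14 without CC059 and 15 without CC061, and rose to 36 without CC016. Scaling by total counts moved the median of all genes to 0.19 and that of the subunits to 0.40.

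In lung 0 of 13206 genes (0%) were called by limma-voom and 0 by edgeR, with 995 (7.53%) at an unadjusted p under 0.05. Of 76 subunits 40 lay above and 36 below 0, with a median of 0.0032 and 1 at p under 0.05. With scaling by total counts 72 lay above 0, as the median of all genes moved to 0.15. *Cox7b* was at -0.12 (SE 0.13) and *Cox5a* at -0.07 (SE 0.15). The lean of the subunits in liver was therefore not seen in lung, but liver and lung were not tested against each other. Each was tested against kidney. In a fit over the 72 libraries of the 24 mice, with mouse as a block, the high minus low difference in liver minus that in kidney was called for 0 of 12826 genes (0%). Lung minus kidney was called for 3 (0.0234%), and 0 of the subunits were among them, with lowest adjusted p values of 0.999 and 0.665 for the subunits.

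The mean high minus low difference over the 3 tissues was called for 5 of 12826 genes (0.039%), 0 of them subunits (lowest adjusted p 0.524). This mean was not among the planned comparisons. The fit took 1 within-mouse correlation (0.1385) for all genes. For a gene whose libraries of a mouse correlate more strongly, its p is too small. These 5 genes lie outside the naming rule, which takes genes called in the kidney fit, and were chosen after their values were seen. *Coa4*, an assembly factor of complex IV, fell by 0.41 on the log2 scale (SE 0.08, adjusted p = 0.0442 by limma-voom). Its level was 5.15, 6.18 and 8.74 CPM in high and 5.96, 8.54 and 10.7 CPM in low kidneys. In liver it was 2.79, 4.50 and 7.39 CPM against 3.70, 6.19 and 9.20 CPM (-0.43, SE 0.14), and in lung 2.91, 4.52 and 9.07 CPM against 4.91, 7.32 and 10.1 CPM (-0.56, SE 0.15). It was thus lower in the high mice in every tissue, with overlapping groups, and all of its 50-base windows were unique (100%). *Cisd3*, a mitochondrial iron-sulfur protein (chr11:97547140-97549935), rose by 0.75 (SE 0.16, adjusted p = 0.0554). Its medians were 73.5 against 46.4 CPM in kidney, 35.8 against 18.4 CPM in liver and 11.9 against 7.53 CPM in lung.

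The other 3 genes have no role in the respiratory chain. *Wdfy1*, an endosomal adaptor of innate immunity, fell by 0.57 (SE 0.13, adjusted p = 0.0576), with medians of 102 against 157 CPM in kidney, 25.6 against 39.1 CPM in liver and 70.4 against 92.9 CPM in lung. *Trim5*, of a family of antiviral ubiquitin ligases, rose by 2.81 (SE 0.61, adjusted p = 0.0554), and its low group had a median of 0 CPM in each tissue but a highest value of 9.35 CPM in kidney. *Nlrp1a*, an inflammasome sensor at chr11:70904699-70958290, rose by 2.48 (SE 0.55, adjusted p = 0.0576). In lung it had 1.43, 24.99 and 39.1 CPM in high and 0, 2.15 and 24.7 CPM in low mice. *Nlrp1a* lies within 10 Mb of the chromosome 11 copy of *Cox7c*. *Trim5* and *Nlrp1a* belong to multigene families, and the read uniqueness of these genes was not tested. *Car5a* was not called in this mean (adjusted p of 0.999).

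Genes near *Cox7c* and near its chromosome 11 copy were examined because mice that share an allele at a locus also share the alleles around it. Within 1 Mb of *Cox7c* only *Ccnh* (0.01, SE 0.09), of a cyclin-dependent kinase complex, and *Rasa1* (-0.00, SE 0.07), a Ras regulator, were tested. Within 10 Mb 49 genes were tested in kidney, 0 were called, and 5 (10.2%) had an unadjusted p under 0.05, beside 5.35% of all genes. In liver 0 of 41 and in lung 0 of 49 were called, with 7.32% and 8.16% at p under 0.05. Around the chromosome 11 copy 226 genes were tested within 10 Mb in kidney, 196 in liver and 251 in lung, with 0 called in each. Their shares at p under 0.05 were 8.41%, 5.61% and 14.3%, and within 1 Mb of the copy the share was 15.2% of 33 genes in kidney, 13.8% of 29 in liver and 23.5% of 34 in lung. The shares of all genes were 5.35%, 4.89% and 7.53%. Neighbouring genes share haplotypes and are not independent, and genotypes were not used here.

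Cell type markers were compared because kidney pieces can differ in makeup, and 0 genes of the 7 lists were called. The 8 genes tested for thick ascending limb and distal tubule all lay above 0, with a median of 0.43, and *Cldn16* (0.55, SE 0.22), a claudin of magnesium reabsorption, *Trpm6* (0.46, SE 0.19), a magnesium channel, and *Egf* (0.50, SE 0.23) had an unadjusted p under 0.05. The list summed to 340 to 907 TPM in high (median 651) and 143 to 836 TPM in low kidneys (median 372). In CPM without *Rn45s* the 8 tested genes had closer medians, 1185 and 902. Of 16 proximal tubule genes 13 lay above 0 with 0 at p under 0.05, led by *Slc13a3* (0.29, SE 0.14), *Pck1* (0.29, SE 0.15) and *Cubn* (0.25, SE 0.14). The summed proximal list had nearly equal medians, 109590 TPM in high and 107660 TPM in low kidneys. Of 11 glomerular and endothelial genes 7 lay above 0, and *Kdr* (0.18, SE 0.07), *Podxl* (0.20, SE 0.09) and *Ehd3* (0.24, SE 0.10) had p under 0.05. The 8 collecting duct and medulla genes had 7 above 0 (*Slc4a1* 0.42, SE 0.22; *Atp6v1g3* 0.24, SE 0.16; *Slc14a2* 0.69, SE 0.47) and 0 at p under 0.05, but 4 without CC032. Leaving out CC032 also gave the highest number at p under 0.05 over all genes, 893.

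All 7 immune markers tested lay below 0, with a median of -0.72, and *C1qb* (-0.94, SE 0.42), *C1qa* (-0.72, SE 0.36) and *Adgre1* (-1.01, SE 0.51), all of macrophages, led the list, *C1qb* alone with an unadjusted p under 0.05. The 14 genes of the list summed to 92.2 to 337 TPM in high (median 158) and 74.9 to 836 TPM in low kidneys (median 171), highest in CC020 and then CC068 (686 TPM). The defining leukocyte gene *Ptprc* reached 0.4 TPM in high and 2.24 TPM in low kidneys. The injury list had 5 of 7 below 0, led by *Vim* (-0.27, SE 0.19), *Krt18* (-0.35, SE 0.25) and *Vcam1* (-0.22, SE 0.29), and reached 1551 TPM in CC020. Its sum had the higher median in the high group, 441 against 327 TPM, and 335 against 312 CPM. Without CC020 the medians were 0.34 for the distal list, -0.63 for the immune list, -0.10 for the injury list and 0.078 for the respiratory subunits, of which 63 of 80 were then above 0. With each kidney left out in turn, from 1 (without CC053) to 6 (without CC032) distal genes had p under 0.05. The immune genes ran from 0 (without CC030) to 4 (without CC016), and 0 genes of either list were called. Over all genes the number at p under 0.05 was also lowest without CC053 (505) and highest without CC032 (893). The part of cell makeup in the small differences of the subunits was not tested.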

How the data were processed

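Total RNA (RNA integrity of at least 7.0) from whole kidney, liver and lung was depleted of ribosomal RNA and sequenced as 50-base single-end reads. The authors filtered reads, mapped them to pseudo-genomes of each strain (Build37, mm9) and pseudo-transcriptomes with RSEM and STAR 2.5.3a, as the submitters' processing notes also list, and deposited for each library RSEM expected counts, TPM and FPKM of 24423 genes from uniquely aligned reads. The expected counts as deposited are unnormalized (25 values were not whole and were rounded). TPM as deposited by the authors is scaled by effective transcript length to a fixed library total that includes *Rn45s*. FPKM was not used.

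*Rn45s* was removed. Genes above 1 CPM in 30% or more of 24 libraries were kept, scaled by TMM (edgeR 4.0.16) and tested by limma-voom (R 4.3.3, limma 3.58.1), where the group was the only term. The study's methods also use TMM and limma, with strain, batch and tissue as terms, and state the CPM filter for chromatin windows. A strain term could not be fitted, as the groups are different strains. Adjusted p values are Benjamini-Hochberg values over all tested genes, called at 0.1 or less. CPM values of genes other than *Cox7c* are TMM-scaled. The fit over 3 tissues used the mouse as a block, since libraries of 1 strain come from the same animal (consensus correlation 0.1385). Alternatives were edgeR's quasi-likelihood test, DESeq2 1.42.0, other scalings, filters, units and groupings, and leaving out each library. Permutation tests (scipy 1.17.1) drew 100000 resamples. On simulated counts for 11878 genes in 12 against 12 kidneys, the fit recovered 75 of 100 genes changed by a log2 of 1 and 93 of 100 changed by a log2 of 2, with 27 false calls among 195. The limit of 3 counts covers counting error only. With 1 mouse per strain, p values measure the spread between strains. The labels name no batch. The paper fits sequencing batch as a term and none was fitted here, so the spread between strains can also hold differences between batches.

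The groups and gene lists were chosen with earlier results of these data known. Genes were named by rule: all tested complex IV subunits, the 3 smallest p values of each other list, genes within 1 Mb of *Cox7c*, and genes called in the kidney fit that had at least 5 CPM or lay within 10 Mb. No gene called in the kidney fit met the last part. Exceptions are marked as chosen after their values were seen. Windows and copies were searched in the NCBIM37 reference, and exact matches on both strands were counted.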

Additional observations from a re-analysis of the deposited data

Results flagged for a closer look

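For 3 genes the high minus low difference in lung differed from that in kidney in the limma-voom fit over 3 tissues (adjusted p = 0.0982 each). None is a gene of the respiratory chain. *Ctxn3*, a small membrane protein, had a lung minus kidney difference of 4.64 on the log2 scale (SE 1.02), from -2.47 in kidney and 2.17 in lung. *Fam161a*, a protein of cilia and centrosomes, had -0.92 (SE 0.19), from 0.46 in kidney and -0.47 in lung. *Ppp1r9b*, the phosphatase scaffold spinophilin, had 0.73 (SE 0.16), from -0.56 in kidney and 0.16 in lung. None of the 3 was called in the limma-voom fits of the 24 kidneys or of the 24 lungs alone, but *Ppp1r9b* was called in kidney by DESeq2 (adjusted p = 0.027), in the fit of all 47 kidneys (0.0837) and as the kidney difference of the fit over 3 tissues (0.0927). Without the mouse as a block their adjusted p values were 0.335, 0.228 and 0.335, and with DESeq2 size factors 0.156, 0.133 and 0.159, so these calls depend on both choices.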

How the results depend on the processing

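In kidney, 1 gene was called. DESeq2 called 7 (2 higher, 5 lower), the fit of all 47 kidneys 2 (both lower), and the fit over 3 tissues with mouse as replicate block, added after the data were seen, 9 (7 higher, 2 lower). edgeR, the continuous score of 47 kidneys, log2(TPM + 0.1), and an adjusted p of 0.01 with a log2 difference of at least 1 each gave 0. Leaving out each library gave 0 to 2 in kidney (0 without the low kidneys CC038 or CC068, 2 without CC005 or CC032) and 0 to 1 in liver (1 without CC032). The other 26 kidney alternatives and the 6 for lung kept the count. *Car5a* lay between 1.28 and 1.51 with each library left out, and lost its call in 6 of 34 alternatives and in the fit over 3 tissues (adjusted p = 0.422).

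For lung minus kidney, 3 genes were called with the replicate block, 0 without it and 0 with DESeq2 size factors. The mean over 3 tissues, which was not planned, gave 5 calls with the block and 8 without it. No subunit of the respiratory chain was called under any of 34 alternatives in kidney, where their median ran from 0.0673 without CC061 to 0.237 on log2(TPM + 0.1), a scale that also moved the median of all genes to 0.133. *Cox7c* in liver and lung kept its difference on log2(TPM + 1) (6.36 and 5.23). The cause of these changes was not tested. Depth limits the low kidneys, where *Cox7c* had at most 9 counts.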

Other observations

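Several other subunits of the chain were also counted at low levels. Of 86 nuclear subunits, 22 had a median under 100 TPM in the high kidneys and 64 had 100 TPM or more. Of the 22, 13 had over 99% unique windows and 3 had under 50%, against 33 and 6 of the 64. In the RefSeq table (GRCm38.p6, used for names only) 14 of the 22 had more than 1 transcript, against 16 of the 64. *Ndufs1*, *Ndufs8* and *Atp5g3*, each with 100% unique windows, had medians of 3.04, 1.08 and 4.21 TPM. *Cox4i1*, also with 100% unique windows, had a median of 21.95 TPM, while its partner subunits *Cox5a* and *Cox6c* had 710 and 1785 TPM. These values were not examined further.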
